A study of Homo sapiens with 6 samples.

Results

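The CEACAM genes CEACAM1, CEACAM5, CEACAM6 and CEACAM7 encode cell surface adhesion glycoproteins of the carcinoembryonic antigen family. The family was chosen by the low signals of CEACAM6 and CEACAM5 relative to control on some of these same arrays, so the differences of its genes from control are a description and were put to no test. The 4 genes were measured by 6 probes, out of 18757 named genes and 53103 gene probes. Gene expression was measured in HSC3, an established human cell line from a squamous cell carcinoma of the tongue, on 6 CodeLink whole genome arrays of 1 colour. The labels gave 1 array each to cells treated with LEMD1, MIA2, TANGO, MATE2 and MIA siRNA and to control cells. An siRNA is a short double-stranded RNA that directs the breakdown of a matching mRNA. LEMD1 belongs to the cancer-testis antigens and carries a LEM domain, MIA and MIA2 are members of the melanoma inhibitory activity family, TANGO was taken as another name of MIA3 and MATE2 as another name of SLC47A2, a drug and toxin exporter. The array methods spoke of the control cells as untreated, whereas the deposited design listed a control siRNA, and which of these holds cannot be told apart here. With 1 array per condition there was no replicate check on any difference, no p-value could be given, and the number of arrays limited the precision. Every comparison used the same control array, so an unusual spot on that array would enter all 5 of them.

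The targets of the siRNAs were read first. The LEMD1 probe had a normalized signal of 27.6 on the array labelled LEMD1 and 42.3 on the array labelled MIA2, both near background, 3192 on the array labelled TANGO, 1011 on the array labelled MATE2 and 195 on the array labelled MIA, against 278 on the control array. LEMD1 was therefore at least 10.1-fold lower on its own array, and it was also at least 6.57-fold lower on the array labelled MIA2. SLC47A2 had a log2 ratio over control of -4.68 on the array labelled TANGO and of -4.25 on the array labelled MATE2. The MIA2 probe with good spots was 1.09-fold higher than control on the array labelled MIA2. The other MIA2 probe and the MIA probe were near background on all 6 arrays, and no probe was named MIA3. On the array labelled MIA2, LEMD1 was thus low, while MIA2 was not lower by its probe with good spots. Likewise, SLC47A2 was low on the array labelled TANGO as well as on the array labelled MATE2. Whether the labels MIA2 and TANGO are right was not tested. The labels TANGO and MIA could not be checked by their own target, and arrays are named here as labelled. Good spots numbered 27545 to 30628 per array. All 8 squamous keratinocyte markers with a probe had good spots on all 6 arrays, whereas 3 of 7 intestinal epithelium markers, 1 of 4 granulocyte markers and 3 of 5 endothelium markers were near background on every array. Some markers of those lists did have good spots, and they are given with the marker values at the end.

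CEACAM proteins are built from immunoglobulin-like domains and bind each other and other family members across cell contacts. CEACAM1 spans the membrane and can carry a cytoplasmic tail with inhibitory signalling motifs. CEACAM5 (carcinoembryonic antigen, the classical tumour marker of colorectal cancer), CEACAM6 and CEACAM7 are held at the cell surface by a glycosylphosphatidylinositol (GPI) anchor instead. All 4 genes lie on chromosome 19.

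The promoters of the 4 genes are shown because CEACAM6 and the first CEACAM5 probe were low on the same arrays, while the second CEACAM5 probe, CEACAM7 and CEACAM1 followed CEACAM6 less closely. Each is the stretch of 250 bases before the start of the gene, 5′ to 3′ on the gene's own strand, from RefSeq on build GRCh38.p14. The capitals mark the E-box CACGTG, a binding sequence of USF and other basic helix-loop-helix factors, in CEACAM5 and CEACAM6, and the 6 bases aligned with it in CEACAM7 and CEACAM1. The windows are chr19:41755280-41755529 on the plus strand for CEACAM6, chr19:41708376-41708625 on the plus strand for CEACAM5, chr19:41688271-41688520 on the minus strand for CEACAM7 and chr19:42528482-42528731 on the minus strand for CEACAM1.
CEACAM6: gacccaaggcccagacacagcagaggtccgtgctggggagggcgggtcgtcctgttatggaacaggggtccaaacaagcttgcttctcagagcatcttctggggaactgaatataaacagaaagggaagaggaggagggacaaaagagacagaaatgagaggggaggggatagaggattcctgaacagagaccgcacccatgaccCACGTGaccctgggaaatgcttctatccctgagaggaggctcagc
CEACAM5: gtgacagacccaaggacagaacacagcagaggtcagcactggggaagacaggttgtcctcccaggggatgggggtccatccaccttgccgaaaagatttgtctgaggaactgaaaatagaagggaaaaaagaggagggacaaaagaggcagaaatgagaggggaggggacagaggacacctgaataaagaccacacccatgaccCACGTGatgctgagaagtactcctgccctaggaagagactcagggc
CEACAM7: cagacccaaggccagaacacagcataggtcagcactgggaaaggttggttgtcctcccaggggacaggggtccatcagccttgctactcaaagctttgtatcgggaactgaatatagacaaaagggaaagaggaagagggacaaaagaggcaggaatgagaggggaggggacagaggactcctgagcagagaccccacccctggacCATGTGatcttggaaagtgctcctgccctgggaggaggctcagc
CEACAM1: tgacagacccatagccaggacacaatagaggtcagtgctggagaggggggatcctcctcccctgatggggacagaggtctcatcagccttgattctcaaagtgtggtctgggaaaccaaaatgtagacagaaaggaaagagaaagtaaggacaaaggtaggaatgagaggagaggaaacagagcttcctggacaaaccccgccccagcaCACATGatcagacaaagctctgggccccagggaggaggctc

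The E-box was searched on both strands and overlapped no other motif that was searched. Its first base lay at position -45 from the start in CEACAM6 and at -46 in CEACAM5. The aligned bases began at -44 in CEACAM7 (CATGTG) and at -41 in CEACAM1 (CACATG), and each matched the E-box at 5 of 6 bases. CACGTG was found in 6.31% of 34788 RefSeq windows of the same length. Over the aligned bases, the CEACAM6 promoter was 80.2% identical to that of CEACAM7, 78.1% to that of CEACAM5 and 74.4% to that of CEACAM1, so the promoter nearest to CEACAM6 in sequence belonged to CEACAM7. The GC box GGGCGG, in 42.6% of all windows, occurred once in CEACAM6 and once in CEACAM1. The AP-1 sequence TGANTCA, in 6.59% of all windows, and the SOX core AACAAT, in 9.0%, were found in none of the 4. These matches are letters in a window and not sites shown to be bound.

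CEACAM6, which is widely made in epithelia and in granulocytes and is raised in many carcinomas, had the largest spread of the 4 genes. Its normalized signal was 71.1 on the array labelled LEMD1, 73.3 on the array labelled MIA2, 299 on TANGO, 792 on MATE2 and 1187 on MIA, against 1332 on the control array. All 6 spots were good. The arrays labelled LEMD1 and MIA2 were both low, TANGO lay between, and MATE2 and MIA were nearest to control. The log2 ratio over control was -4.23 on the array labelled LEMD1, or 18.7-fold lower, and -4.18 on the array labelled MIA2, or 18.2-fold lower. Each of these was the second lowest ratio on its array, among 27466 probes for LEMD1 and 25898 for MIA2. The ratio was -2.15 on the array labelled TANGO, or 4.45-fold lower, -0.75 on MATE2 and -0.17 on MIA. Among the 1000 probes nearest to it in signal, the central 95% of ratios ran between -0.99 and 0.96 on the array labelled LEMD1, between -1.22 and 1.09 on MIA2 and between -1.54 and 1.59 on TANGO. CEACAM6 was below that range on these 3 arrays and inside it on MATE2 and MIA. The LEMD1 and MIA2 arrays differed from each other by a log2 ratio of -0.05 for this probe, LEMD1 over MIA2. The array labelled TANGO was 2.65-fold lower than the array labelled MATE2.

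The size of the CEACAM6 difference depended on the background correction. The spot mean on the array labelled LEMD1 was 145 over a local background of 65, and on the array labelled MIA2 it was 122 over 58, against 1393 over 67 on the control array. With no background correction the log2 ratio was -3.37 for LEMD1 and -3.41 for MIA2, and with normexp correction it was -3.48 for LEMD1 and -3.45 for MIA2. Against the array labelled MIA in place of control, CEACAM6 was 16.7-fold lower on the array labelled LEMD1. Against the median of the 5 other arrays, the ratio was -3.48 for LEMD1, -3.43 for MIA2 and -1.41 for TANGO.

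The second CEACAM6 probe was low on the same 3 arrays. The scanner files tied it to CEACAM6 alone, while the platform annotation tied it to both CEACAM6 and CEACAM8, a granulocyte member of the family, so it is treated as shared. Its normalized signal was 46.6 on the array labelled LEMD1, 42.8 and near background on MIA2, 186 on TANGO, 441 on MATE2 and 507 on MIA, against 632 on the control array. It was 13.6-fold lower than control on the array labelled LEMD1, at least 14.8-fold lower on MIA2 and 3.40-fold lower on TANGO. Its log2 ratio was -0.52 on MATE2 and -0.32 on MIA. Over the 6 arrays its log2 signal followed the first CEACAM6 probe with a Pearson r of 0.997, a description over 6 arrays of which both probes share every hybridization. No probe sequences were used here, so it was not tested how far the probes of this closely related family bind each other's transcripts.

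**Figure D1:**
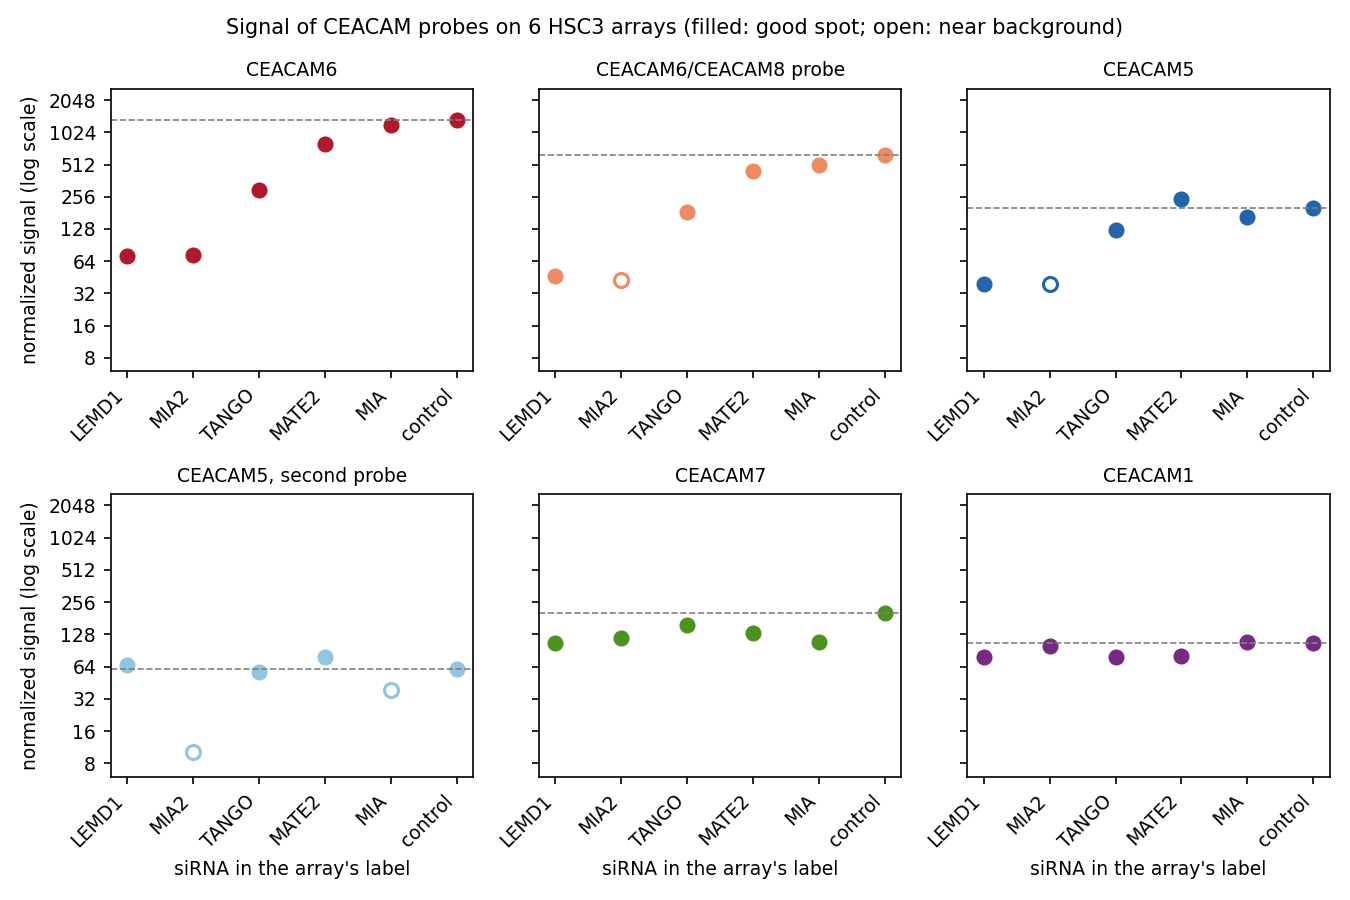
Normalized signal (log scale) of the 6 CEACAM probes on each of the 6 arrays, 1 point per array; filled points are good spots, open points are near background, and the dashed line is the control array. CEACAM6 runs between 71.1 on the array labelled LEMD1 and 1332 on the control array, while CEACAM1 stays between 78.4 and 108.

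CEACAM5 had a normalized signal of 39.0 on the array labelled LEMD1, 39.6 and near background on MIA2, 127 on TANGO, 243 on MATE2 and 166 on MIA, against 199 on the control array. The lowest arrays were thus the same as for CEACAM6, but here the array labelled MATE2 was higher than control. CEACAM5 was 5.10-fold lower than control on the array labelled LEMD1 (log2 ratio -2.35, the 32nd lowest of 27466 probes) and at least 5.03-fold lower on the array labelled MIA2. Its log2 ratio was -0.65 on TANGO, 0.29 on MATE2 and -0.26 on MIA, none of them 2-fold. With no background correction the ratio was -1.36 on the array labelled LEMD1 and -1.39 on MIA2. Its log2 signal had a Pearson r of 0.954 with that of CEACAM6 over the 6 arrays, again a description.

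A second probe annotated to CEACAM5 did not show this. Its normalized signal was 65.9 on the array labelled LEMD1, 10.1 on MIA2, 56.4 on TANGO, 78.6 on MATE2 and 38.7 on MIA, against 60.4 on the control array, with the MIA2 and MIA spots near background. It was 1.09-fold higher than control on the array labelled LEMD1, where the first probe was 5.10-fold lower. For MIA2 it was at least 1.56-fold lower, a bound that cannot reach 2-fold because the control spot itself was dim. The statement that CEACAM5 was lower on the array labelled LEMD1 therefore rests on 1 of its 2 probes. The files do not settle which of them measured the transcript better.

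CEACAM7, best known from colon epithelium, had its highest signal on the control array. Its normalized signal was 106 on the array labelled LEMD1, 119 on MIA2, 155 on TANGO, 133 on MATE2 and 109 on MIA, against 203 on the control array. All 5 siRNA arrays lay below control, and none was 2-fold lower. The nearest to that limit were the arrays labelled LEMD1 (log2 ratio -0.93, 1.91-fold lower) and MIA (-0.90, 1.86-fold lower). The ratio was -0.77 on MIA2, -0.39 on TANGO and -0.61 on MATE2. On the array labelled MIA, where few probes differed from control, the value lay below the central 95% of probes of like signal, -0.60 to 0.72, and was the 147th lowest of 26688. On the other 4 arrays it lay inside that range. The differences of CEACAM7 share the 1 high spot on the control array. With the array labelled MIA as comparator, the ratio was -0.04 for LEMD1, 0.13 for MIA2, 0.51 for TANGO and 0.29 for MATE2.

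CEACAM1, the transmembrane member, varied least. Its normalized signal was 79.2 on the array labelled LEMD1, 100.2 on MIA2, 78.4 on TANGO, 80.3 on MATE2 and 108 on MIA, against 106 on the control array. The highest array was 1.38-fold above the lowest. The arrays labelled LEMD1, TANGO and MATE2 formed the lower 3, with log2 ratios of -0.42 for LEMD1, -0.43 for TANGO and -0.40 for MATE2, while MIA2 was at -0.08 and MIA at 0.03. All 5 ratios lay inside the central 95% of probes of like signal.

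By the brightest probe of each gene, 2 of the 4 members were at least 2-fold lower on the array labelled LEMD1, where 3.98% of 12924 measured genes were. For MIA2 it was 1 of 3 measured members, with CEACAM5 as a further lower bound, where 5.21% of genes were lower. On TANGO it was 1 of 4 members and 9.09% of genes, on MATE2 0 of 4 and 11.7%, and on MIA 0 of 4 and 0.258%. No member was 2-fold higher on any array, where 2.03% of genes were higher on the array labelled LEMD1, 3.29% on MIA2, 5.57% on TANGO, 5.95% on MATE2 and 0.391% on MIA. The median log2 ratio of the measured members was -1.64 on the array labelled LEMD1, -0.77 on MIA2, -0.54 on TANGO, -0.50 on MATE2 and -0.21 on MIA, while that of all genes lay between -0.04 and -0.01. Because the family was chosen for low CEACAM6, nothing is read from these counts. The value just inside the 2-fold limit was CEACAM6 on TANGO at -2.15 and the value just outside it was CEACAM7 on LEMD1 at -0.93. RNA was taken from whole cultures, so fewer cells making a transcript and less of it per cell cannot be told apart.

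**Figure D2:**
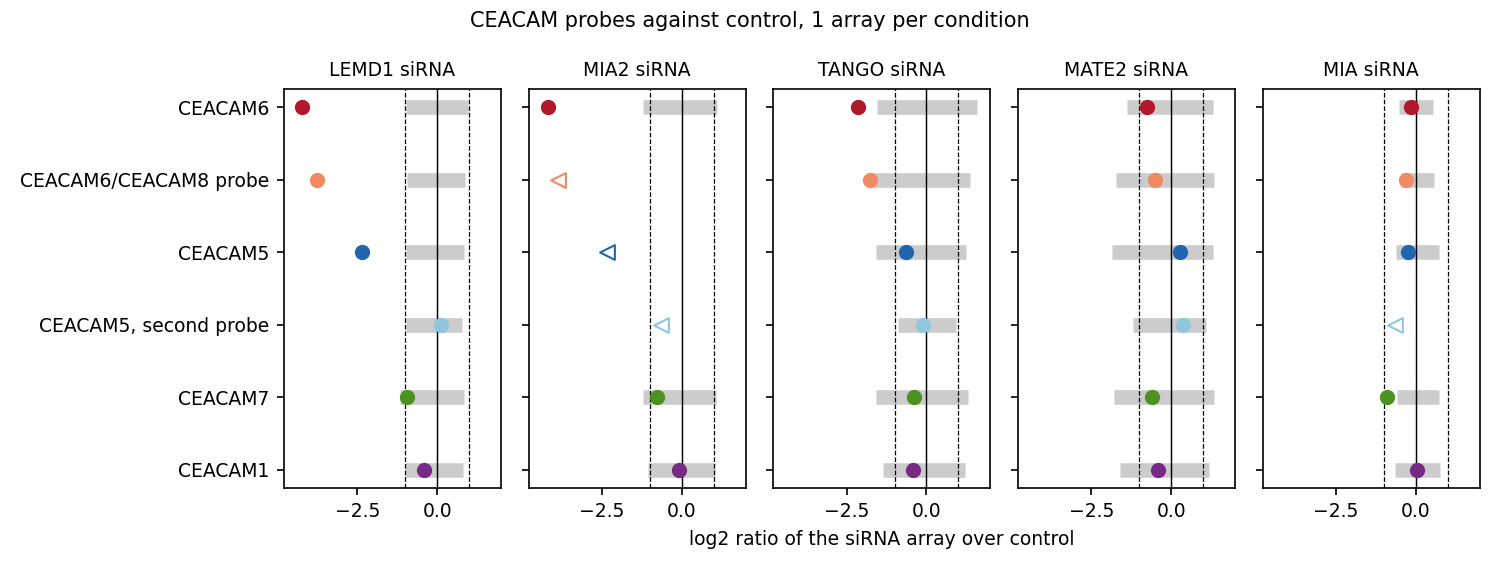
Log2 ratio over control of each CEACAM probe on the 5 siRNA arrays; triangles are bounds where the siRNA spot was near background, dashed lines mark 2-fold, and grey bars span the central 95% of the 1000 probes of like signal. Both CEACAM6 probes and the first CEACAM5 probe lie far left of the bars for LEMD1, and CEACAM7 lies left of its bar for MIA at -0.90.

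Few other members of the family could be compared with CEACAM6. Of 18 further CEACAM and pregnancy-specific glycoprotein (PSG) genes, 10 had a named probe and 4 or 5 were measurable against control, depending on the array. None changed 2-fold on any of the 5 arrays. Among all genes, the share changed in either direction ran between 0.650% on MIA and 17.6% on MATE2. With 4 or 5 genes measured, nothing particular to the family is read from this count. CEACAM19, a little-studied member, had a normalized signal of 162 on the array labelled LEMD1, 199 on MIA2, 255 on TANGO, 226 on MATE2 and 196 on MIA, against 144 on the control array. CEACAM21 had log2 ratios of -0.28 on the array labelled LEMD1, -0.03 on MIA2 and -0.79 on TANGO. CEACAM3, the granulocyte receptor for CEACAM-binding bacteria, was near background on all 6 arrays. The median of the measured relatives was 0.15 on the array labelled LEMD1, beside -0.02 for all genes.

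Known binding partners were mostly within 2-fold on the arrays where CEACAM6 was lowest. On the array labelled LEMD1, 0 of 16 measured ligands and partners were lower and 1 was higher, CTNNB1 (beta-catenin, which binds the CEACAM1 tail) at a log2 ratio of 1.16. For MIA2, ITGB1 (an integrin subunit) was lower at -1.02 and S100A10 was higher at 1.01 out of 17. For TANGO 4 of 16 were lower, and for MATE2 6 of 14. Among all genes, the share lower was 3.98% on the array labelled LEMD1, 5.21% on MIA2, 9.09% on TANGO and 11.7% on MATE2. The share higher was 2.03% on the array labelled LEMD1 and 3.29% on MIA2. Fibronectin, FN1, had log2 ratios of -0.21 on the array labelled LEMD1 and -0.84 on MIA2 and was lower on MATE2 at -1.87. On TANGO its spot was near background, at 20.9 against 373 on the control array, with a bound of -3.57. The phosphatase PTPN6, which binds the CEACAM1 tail, was lower on TANGO at -1.34 and near background on MATE2, with a bound of -2.32. The actin linker FLNA was lower on TANGO at -1.26. EGFR was lower at -1.37 on TANGO by its brightest probe, while its other probes gave -0.17 and 0.06 there.

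The machinery that makes the GPI anchor was measured for 26 genes on the array labelled LEMD1. Of these 1 was lower and 0 higher, beside 3.98% lower and 2.03% higher among all genes. The 1 lower gene was PIGH, a subunit of the enzyme for the first step of anchor synthesis. PIGN, which modifies the anchor, was near background on the array labelled LEMD1, at 21.6 against 76.7 on the control array, with a bound of -1.48. The normalized signal of PIGH was 350.0 on the array labelled LEMD1, 565 on MIA2, 1769 on TANGO, 1896 on MATE2 and 932 on MIA, against 1022 on the control array. On the array labelled MIA2, where CEACAM6 was as low, none of 27 passed 2-fold and PIGH had a log2 ratio of -0.85. Among all genes, 5.21% were lower and 3.29% higher on that array. On TANGO 1 was lower and 3 were higher, among them PIGU at 1.23, beside 9.09% lower and 5.57% higher among all genes. On MATE2 4 were lower, beside 11.7% of all genes, among them GPAA1 at -1.55 and the anchor-remodelling gene MPPE1 at -1.56.

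Among other genes for GPI-anchored surface proteins, 4 of 26 were lower and 1 higher on the array labelled LEMD1, with a median of 0.14. Among all genes, 3.98% were lower and 2.03% higher on that array. CD55, a complement inhibitor, had a normalized signal of 243 on the array labelled LEMD1, 203 on MIA2, 631 on TANGO, 978 on MATE2 and 1135 on MIA, against 1266 on the control array. These arrays stand in nearly the order seen for CEACAM6, with LEMD1 and MIA2 changing places. PLAUR, the urokinase receptor, was low on 3 arrays, at 142 on LEMD1, 152 on MIA2 and 159 on TANGO, and close to control on the others, at 748 on MATE2 and 645 on MIA, against 647 on the control array. The complement inhibitor CD59 was lower on the array labelled LEMD1 at a log2 ratio of -1.17, and its second probe gave -1.85. For MIA2 the 2 CD59 probes gave -0.96 and -1.88. NT5E (CD73) was lower on the array labelled LEMD1 at -1.17 by its brightest probe and at -0.24 by its other one, so its probes disagree. GPC1, a heparan sulphate carrier, was higher at 1.32 on both the array labelled LEMD1 and the array labelled MIA2. For MIA2, 2 of 27 were lower and 2 higher, beside 5.21% lower and 3.29% higher among all genes.

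On the arrays labelled TANGO and MATE2, GPI-anchored genes changed in both directions. On TANGO 5 of 26 were lower and 6 higher, beside 9.09% lower and 5.57% higher among all genes. On MATE2 2 of 26 were lower and 7 higher, beside 11.7% lower and 5.95% higher among all genes. LY6D, a keratinocyte surface protein, had a normalized signal of 298 on the array labelled LEMD1, 450 on MIA2, 1273 on TANGO, 4972 on MATE2 and 175 on MIA, against 189 on the control array. The related LY6K was higher at a log2 ratio of 2.53 on TANGO and 2.78 on MATE2, and the interferon-induced BST2 at 3.10 on TANGO and 2.45 on MATE2. PSCA, prostate stem cell antigen, was lower on MATE2 at -2.62 and near background on TANGO, with a bound of -3.08. CD59 was lower at -1.58 on TANGO and -1.52 on MATE2. NT5E was lower on TANGO at -2.09 and had a bound of -3.08 on MATE2, while its other probe gave -0.26 on TANGO and 0.25 on MATE2. A second probe of RECK, an inhibitor of matrix proteases, was at -1.02 on the array labelled LEMD1, -1.24 on TANGO and -1.43 on MATE2, where the probe taken was at -0.09 on LEMD1, 0.90 on TANGO and 0.46 on MATE2. A second probe of the NKG2D ligand ULBP2 was at -1.20 on LEMD1, against 0.11 by the probe taken.

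By the probe taken, 0 of the other adhesion genes of the immunoglobulin superfamily were 2-fold lower on any array with good spots on both arrays. Among all genes, the share lower ran between 0.258% on MIA and 11.7% on MATE2. On the array labelled LEMD1, 2 of 16 were higher, beside 2.03% of all genes. These were NECTIN1 (an adherens junction protein) at 1.12 and NCAM1 at 1.19. The other NECTIN1 probe gave 0.95 there. Spots near background gave bounds past 2-fold for NECTIN2 on the array labelled LEMD1 (-1.05) and on TANGO (-1.21), for PVR on MIA2 (-1.07) and for NCAM1 on MATE2 (-1.10). A second ALCAM probe was at -1.12 on MIA2, where the probe taken was at -0.46. On TANGO NECTIN1 was at 1.58 by its brightest probe and at -0.06 by the other, and NECTIN4 at 1.74 and BSG at 1.37 were also higher.

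**Figure D3:**
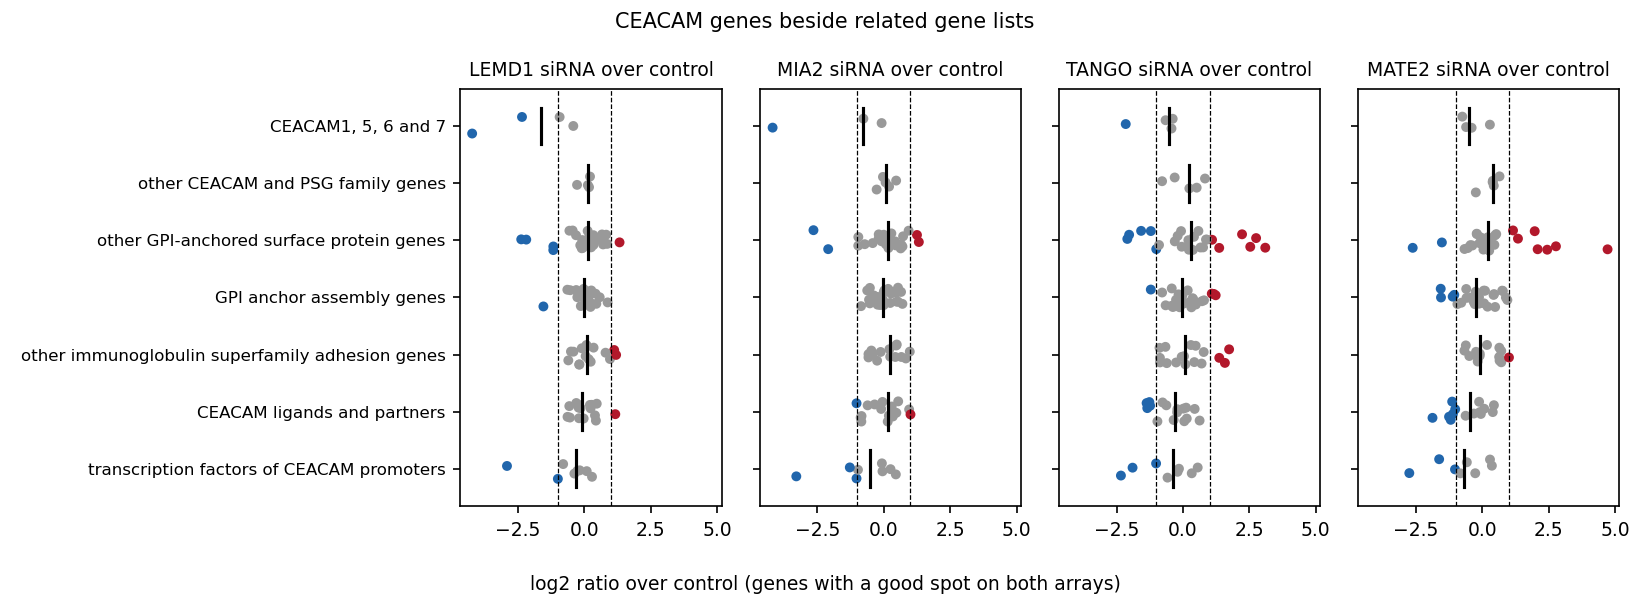
Log2 ratio over control for the 4 CEACAM genes and 6 related lists on 4 arrays; each point is a gene with good spots on both arrays, blue points are at least 2-fold lower, red points at least 2-fold higher, and black bars are medians. For LEMD1 the CEACAM median of -1.64 lies left of the list medians, which run between -0.32 and 0.15. The family was chosen for low CEACAM6 and CEACAM5 on these arrays, so this is a description. CEACAM5 is shown by its first probe only.

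Transcription factors reported to act on CEACAM promoters were measured for 8 genes. SOX9 had a normalized signal of 176 on the array labelled LEMD1, 136 on MIA2, 357 on TANGO, 432 on MATE2 and 1178 on MIA, against 1330.4 on the control array. The arrays stand in almost the same order as for CEACAM6, but MATE2, near control for CEACAM6, was 2-fold lower for SOX9, with a log2 ratio of -1.62. USF1, a factor that binds the E-box, changed little, with log2 ratios of -0.27 on the array labelled LEMD1, -0.07 on MIA2, -0.20 on TANGO, -0.58 on MATE2 and -0.12 on MIA. SP1, which binds GC boxes, lay at the 2-fold limit by its brightest probe on the arrays labelled LEMD1, MIA2, TANGO and MATE2 alike. It had 143 on LEMD1, 141 on MIA2, 142 on TANGO, 141 on MATE2 and 232 on MIA, against 287 on the control array. The other SP1 probe gave log2 ratios of 0.41 on LEMD1, 0.19 on MIA2, -0.34 on TANGO and 0.35 on MATE2. IRF1, a factor of the interferon response, was lower at -2.34 on TANGO and -2.75 on MATE2 and was -0.18 on the array labelled LEMD1. SMAD3 was lower on MIA2 at -1.28, where its other probe gave -0.87. No role of any of these factors in the CEACAM signals was tested.

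Neighbours of the CEACAM genes on chromosome 19 were counted within 1 Mb. On the array labelled LEMD1, 1 of 35 measured neighbours was lower and 0 were higher, beside 3.98% lower and 2.03% higher among all genes. That gene was EXOSC5, an RNA exosome subunit, at a log2 ratio of -1.02, and the median was 0.13. For MIA2 0 of 35 were lower and 2 higher, beside 5.21% lower and 3.29% higher among all genes. On TANGO 1 of 33 was lower and 2 higher, beside 9.09% lower and 5.57% higher. On MATE2 4 of 36 were lower and 2 higher, beside 11.7% lower and 5.95% higher. Against a control spot near background, PCAT19 had a bound of 3.63 on TANGO and of 5.10 on MATE2, and EXOSC5, itself near background on TANGO, had one of -2.38 there. Nothing particular to the neighbours is read from these counts.

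The genes most like CEACAM6 were sought by Pearson r of log2 signal over the 6 arrays, among 4907 named genes with good spots on all arrays and a range of at least 2-fold. The 10 nearest were TICAM2 (0.999), CD55 (0.991), RALGPS2 (0.986), PPAT (0.985), GINS3 (0.984), SLC39A10 (0.984), KLK6 (0.983), TLNRD1 (0.983), MECOM (0.982) and ZNF143 (0.980). Their r values are so close that neighbours in this order cannot be ranked with 6 arrays. TICAM2, an adaptor of toll-like receptor signalling, had a normalized signal of 163 on the array labelled LEMD1, 162 on MIA2, 347 on TANGO, 542 on MATE2 and 643 on MIA, against 700.0 on the control array. Its log2 ratio was -2.11 on both the array labelled LEMD1 and the array labelled MIA2, so it kept the pattern of CEACAM6 at a smaller size. KLK6, a secreted serine protease, had ratios of -1.04 on the array labelled LEMD1, -0.83 on MIA2 and -0.59 on TANGO. MECOM had -1.86 on the array labelled LEMD1 by the probe taken and -0.29 by another probe, and -1.57 on MIA2 against 0.38 by that probe. SOX9 was the 35th by this measure (0.950) and PLAUR the 82nd (0.915).

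**Figure D4:**
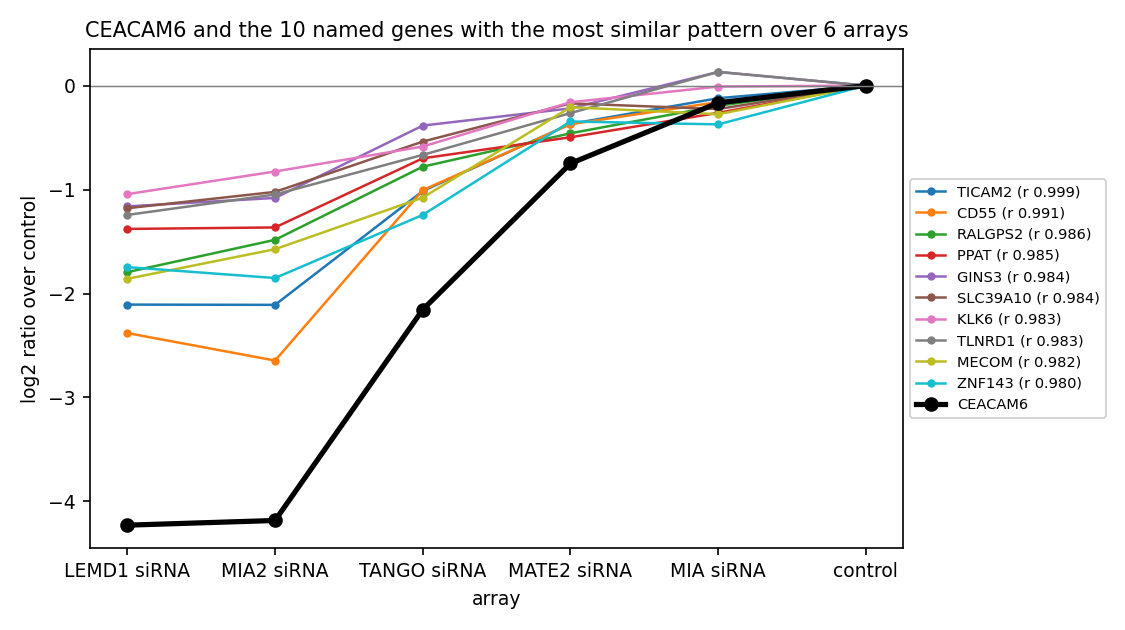
Log2 ratio over control on the 6 arrays for CEACAM6 (thick black line) and the 10 named genes with the most similar log2 signal, ordered by array; lines join points of a gene and stand for no time course. CEACAM6 reaches -4.23 on the array labelled LEMD1, and the deepest of the 10, CD55, reaches -2.38 there.

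By the same measure over the 6 arrays, the first CEACAM5 probe had r of 0.954 with CEACAM6, CEACAM7 0.502, the second CEACAM5 probe 0.467 and CEACAM1 0.394. The nearest patterns to CEACAM1, among 4908 candidates, were those of SLX1B (0.968), B2M (0.966), the light chain of MHC class I, and SSPN (0.963), all of which had lower signals on the arrays labelled LEMD1, TANGO and MATE2 than on control. SSPN had log2 ratios of -1.13 on the array labelled LEMD1, -1.59 on TANGO and -1.33 on MATE2, while the log2 range of CEACAM1 itself was under 1, and so its order of arrays rests on small steps.

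Squamous markers differed between the same arrays. Their summed normalized signal was 39404 on the array labelled LEMD1, 37521 on MIA2, 12649 on TANGO, 14632 on MATE2 and 25849 on MIA, against 28588 on the control array. KRT5, a basal keratin, had 14792 on the array labelled LEMD1, 12772 on MIA2, 4837 on TANGO, 3283 on MATE2 and 1867 on MIA, against 1558 on the control array, so the arrays lowest for CEACAM6 were the highest for KRT5. The part of these differences in the CEACAM signals was not tested. The intestinal markers CDX1, LGALS4 and GUCY2C and the granulocyte marker MPO were near background on all 6 arrays. Other markers of these lists were not. The intestinal adhesion gene CDH17 had good spots on all 6 arrays, with 185 on the array labelled LEMD1 and 222 on MIA2, against 189 on the control array, and CDX2 had 78.0 on LEMD1 and 101 on MIA2, against 73.5 on the control array. VIL1 was good on 5 arrays and KRT20 on 1, and of the granulocyte markers CXCR2 was good on 5, CSF3R on 4 and S100A12 on 2. The endothelium marker PECAM1 had good spots on all 6 arrays. It had 348 on the array labelled LEMD1 and 457 on MIA2, against 338 on the control array, and VWF was good on TANGO alone. The summed signal of the intestinal list was 371 on the array labelled LEMD1 and 450.0 on MIA2, against 359 on the control array, and that of the granulocyte list was 235 on LEMD1 and 216 on MIA2, against 216 on the control array.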

How the data were processed

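RNA of HSC3 cells was hybridized by the authors to CodeLink Human Whole Genome arrays labelled with Cy5, 1 array per condition. The deposited scanner files hold spot intensity and, per the file headers, came from CodeLink Expression Analysis 5.0.0.31312, and the value used was the spot mean less the median local background, which held within 0.0001 on unmasked spots. The deposited normalized table holds intensity that the authors quantile normalized. Its scale is linear with no centring, and 99.1% of its values lay within 1% plus 1 of the values computed here.

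Of 53423 gene probes, 320 that were masked were left out. The rest were quantile normalized over the 6 arrays, floored at 1 and set on the log2 scale. Probes carried 1 gene (23960, of which 649 through their accession), several (898) or none (28245). Members were every probe annotated to the 4 genes. For other genes the probe with the highest mean log2 signal was used, and other good probes are given where a named gene's probes disagreed on a change described in the text. A change was a log2 ratio of 1 or more in either direction with good spots on both arrays. Where only the siRNA spot was near background, the bound was the control signal over the higher of the dim spot and the lowest good signal of that array, and it is written as at least N-fold. With no counts and 1 array per condition, no test between conditions was run. The 2-fold rule was checked on simulated arrays with known changes. These changes were placed in bright probes only, so the check does not cover the dim members. Genes were named by these choices: the members, the siRNA targets, up to 4 changed genes per list, and the 10 genes most like CEACAM6 and CEACAM1. A gene that this rule also takes is not reported here. ITGB1, S100A10, CTNNB1, CD59, NT5E, PLAUR, GPC1, PSCA, RECK, ULBP2, ALCAM, NECTIN2, PVR, PIGN, PCAT19, USF1, EXOSC5, CEACAM3, CEACAM19 and CEACAM21 were named after their values were seen. So were the intestinal, granulocyte and endothelium markers other than CXCR2. The members and the 13 lists were chosen with earlier results of these data known. Promoters were compared by global alignment of RefSeq sequences. Python 3.11.15, pandas 2.3.3, numpy 2.4.6, R 4.3.3 and limma 3.58.1 (normexp) were used.

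Alternatives were median scaling, no background correction, normexp (offset 50), the deposited table, 50 added to the signal, normalization of the 2 arrays alone, other comparators, other probes and other flag filters. Normalization without the arrays labelled TANGO and MATE2 was added after seeing the data.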

Additional observations from a re-analysis of the deposited data

How the results depend on the processing

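Of 178 recalculated log2 ratios of the members, 167 kept their direction and their side of the 2-fold limit, 9 moved, 1 reversed and 1 no longer passed 2-fold. Over its alternatives CEACAM6 ran between -4.28 and -3.37 on the array labelled LEMD1, between -4.28 and -3.41 on MIA2 and between -2.26 and -1.41 on TANGO. By its second probe, CEACAM5 reversed on the array labelled LEMD1 (0.13) and gave only a bound of -0.64 on MIA2. Against the median of the 5 other arrays, CEACAM5 on MIA was 0.39, CEACAM6 on MIA 1.99, CEACAM1 on MIA2 0.32, CEACAM7 on TANGO 0.38, CEACAM6 on MATE2 1.41 and CEACAM7 on MATE2 0.16. That comparator itself contains the low arrays. Against the array labelled MIA, CEACAM7 was 0.13 on MIA2, 0.51 on TANGO and 0.29 on MATE2. Normalization without the arrays labelled TANGO and MATE2, chosen after seeing the data, changed no call of a member.

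Counts of probes past 2-fold depended on the treatment of dim spots. For LEMD1 the 1136 probes became 599 with normexp, 541 with no background correction, 614 with 50 added, 566 against the median of the other arrays, 2608 with good spots asked of 1 of the 2 arrays and 10528 with no filter on flags. In the same order the 242 probes of MIA became 56, 38, 61, 414, 1344 and 9957, and the 1716 of MIA2 became 862, 764, 890, 786, 3485 and 12558, with 1040 against the array labelled MIA. With normexp, no correction, 50 added, 1 good flag and no filter, the 2901 of TANGO became 1541, 1399, 1592, 5483 and 13954, and the 3356 of MATE2 became 1877, 1691, 1925, 5886 and 14273. The flag filters changed how many probes were compared, and the cause of the other shifts was not tested.

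No paired analysis was possible because each condition had 1 array, and no replicate was left out for the same reason. Signal over background limited the dim members: CEACAM5 and the shared CEACAM6 and CEACAM8 probe gave bounds on the array labelled MIA2.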
